A study of Mus musculus with 35 samples.

Results

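Promoters of noncoding RNA genes were 1367 of the 177904 open chromatin regions measured in mouse hepatocyte nuclei, or 0.768% of all regions and 6.30% of the 21692 promoter regions. They were chosen by annotation alone: the region is annotated as a promoter at a transcription start, and the type of its nearest gene is given as noncoding RNA. They belonged to 961 genes, and the comparison set was the 20217 promoter regions of 12508 protein-coding genes. The nuclei came from Hep-INTACT mice, which carry the CAG-Sun1/sfGFP nuclear envelope tag and Albumin-Cre, so that the tag is switched on in cells in which the Albumin promoter drives Cre and their nuclei can be captured on beads. ATAC-seq, which cuts and tags accessible DNA with a transposase, was run on the captured nuclei, with 1 library per animal.

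The 35 animals, all of this genotype and all collected at ZT 9, formed 9 groups. On the BALB/c background they were C26 cachexia (implanted C26 tumor cells, weight loss above 10%), C26 pre-cachexia (the same cells, before that stage), C26 PBS, NC26 tumor (NC26 cells, weight-stable cancer) and NC26 PBS. On C57BL/6N they were 8025 cachexia (implanted 8025 cells, weight loss above 10%), 8025 PBS, MC38 tumor (MC38 cells, weight-stable) and MC38 PBS. Each group had 4 animals except 8025 PBS with 3, numbered 1, 2 and 4. Each tumor line was used in 1 strain, so line and strain cannot be told apart between models. Library names formed 2 number series: all C26 libraries were in series A, all 8025 libraries in series B, and NC26 and MC38 had replicates 1 and 2 in A and 3 and 4 in B. Since nuclei were pooled within an animal, fewer nuclei with an open site and a less open site per nucleus cannot be told apart.

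Noncoding RNA genes include long noncoding RNAs, which may act in the nucleus as scaffolds or silence neighbouring genes in cis, host genes that carry small nucleolar RNAs (snoRNAs) in their introns, and microRNA (miRNA) genes, whose short products pair with target messenger RNAs through a seed at their 5′ end. Many long noncoding RNAs start back to back with a protein-coding gene and share its open promoter. Many miRNAs are cut from a longer transcript that starts elsewhere. A region at an annotated miRNA start thus lies at or near the hairpin and need not be the promoter of the primary transcript. Such regions are called hairpin regions here, although some do not cover the hairpin. The centres of the Mir1948 and Mir101b regions lie -701 and -768 bp from the annotated start. In liver, miR-122 is the dominant hepatocyte miRNA, Malat1 and Neat1 are abundant nuclear RNAs, and Airn is an imprinted RNA that silences Igf2r in cis in mouse tissues.

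Printed here are the promoters of 8 noncoding genes whose regions differ between groups, as 250 bases before to 50 after the start (RefSeq, build GRCm38.p6, in the direction of transcription). Capitals mark letters searched on both strands: CCAAT for nuclear factor Y, TGANTCA for AP-1, TTCNNNGAA for STAT, TTGCGCAA for C/EBP, CACGTG for the E-box, TGACGTCA for the cAMP response element, GGGCGG for the GC box and TATAAA, the core promoter element. No motif of this set lies within another. Ttc39aos1 (chr4:109406208-109406507, minus strand) and 2010308F09Rik (chrX:13236234-13236533, minus strand) were higher in both cachexia models, and 5730420D15Rik (chr10:95417125-95417424, plus strand) in C26 cachexia. 1700051A21Rik (chr11:72266594-72266893, plus strand) was already higher in C26 pre-cachexia, Gm13293 (chr2:11339239-11339538, plus strand) was higher in 8025 cachexia, and Gm7457 (chr6:142813981-142814280, plus strand) was lower in both models. Scpep1os (chr11:88905678-88905977, plus strand) and 4930412C18Rik (chr4:9770335-9770634, plus strand) differed between strains.
Ttc39aos1: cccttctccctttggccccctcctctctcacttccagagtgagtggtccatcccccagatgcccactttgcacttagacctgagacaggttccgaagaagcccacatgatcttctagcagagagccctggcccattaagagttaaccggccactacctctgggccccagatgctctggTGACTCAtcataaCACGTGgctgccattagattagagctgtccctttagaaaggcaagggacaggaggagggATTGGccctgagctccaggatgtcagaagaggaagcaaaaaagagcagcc
2010308F09Rik: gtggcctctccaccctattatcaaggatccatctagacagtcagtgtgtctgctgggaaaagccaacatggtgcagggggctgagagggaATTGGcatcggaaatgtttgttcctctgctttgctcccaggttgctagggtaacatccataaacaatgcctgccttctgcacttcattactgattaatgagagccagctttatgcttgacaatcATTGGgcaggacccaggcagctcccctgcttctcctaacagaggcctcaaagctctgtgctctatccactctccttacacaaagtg
5730420D15Rik: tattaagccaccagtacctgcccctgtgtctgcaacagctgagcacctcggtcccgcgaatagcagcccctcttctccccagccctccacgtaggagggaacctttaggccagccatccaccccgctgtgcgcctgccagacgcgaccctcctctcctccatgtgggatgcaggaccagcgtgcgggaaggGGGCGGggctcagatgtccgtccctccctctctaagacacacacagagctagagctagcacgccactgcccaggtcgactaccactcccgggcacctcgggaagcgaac
1700051A21Rik: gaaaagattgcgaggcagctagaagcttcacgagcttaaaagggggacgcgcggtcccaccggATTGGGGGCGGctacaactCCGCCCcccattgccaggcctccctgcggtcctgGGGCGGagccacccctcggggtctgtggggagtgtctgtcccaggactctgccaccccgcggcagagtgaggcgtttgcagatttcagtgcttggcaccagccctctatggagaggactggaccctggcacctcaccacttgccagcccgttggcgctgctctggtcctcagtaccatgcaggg
Gm13293: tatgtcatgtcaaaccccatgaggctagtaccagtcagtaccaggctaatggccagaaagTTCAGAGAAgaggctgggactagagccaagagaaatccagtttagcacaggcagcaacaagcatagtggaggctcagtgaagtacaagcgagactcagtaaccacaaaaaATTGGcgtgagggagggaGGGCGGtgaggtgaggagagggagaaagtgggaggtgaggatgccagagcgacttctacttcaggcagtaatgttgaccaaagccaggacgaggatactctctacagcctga
Gm7457: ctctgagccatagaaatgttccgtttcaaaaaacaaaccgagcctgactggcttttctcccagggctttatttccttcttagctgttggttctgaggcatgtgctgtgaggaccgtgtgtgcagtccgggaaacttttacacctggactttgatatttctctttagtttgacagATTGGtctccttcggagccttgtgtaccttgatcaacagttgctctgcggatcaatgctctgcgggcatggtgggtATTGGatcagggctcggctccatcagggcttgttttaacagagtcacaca
Scpep1os: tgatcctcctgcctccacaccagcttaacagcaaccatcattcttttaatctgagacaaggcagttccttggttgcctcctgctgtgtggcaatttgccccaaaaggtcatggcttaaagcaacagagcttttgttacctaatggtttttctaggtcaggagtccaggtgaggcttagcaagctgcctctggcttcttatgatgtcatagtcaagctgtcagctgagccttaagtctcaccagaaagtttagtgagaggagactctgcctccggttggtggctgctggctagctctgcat
4930412C18Rik: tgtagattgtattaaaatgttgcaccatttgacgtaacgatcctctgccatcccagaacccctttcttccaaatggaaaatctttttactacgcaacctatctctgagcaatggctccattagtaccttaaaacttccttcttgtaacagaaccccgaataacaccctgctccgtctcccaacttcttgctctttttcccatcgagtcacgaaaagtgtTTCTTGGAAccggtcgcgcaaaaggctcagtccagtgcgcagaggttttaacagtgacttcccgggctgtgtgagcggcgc

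The Ttc39aos1 promoter held 1 CCAAT, 1 AP-1 and 1 E-box match, and that of Gm13293 held 1 CCAAT, 1 STAT and 1 GC box match. The promoters of Gm7457 and 2010308F09Rik held 2 CCAAT matches each, and 1700051A21Rik held 1 CCAAT and 3 GC box matches. 5730420D15Rik held 1 GC box match, 4930412C18Rik held 1 STAT match, and the Scpep1os window held none of the letters. Among all 32851 promoters in the RefSeq table, CCAAT was present in 37.4%, the AP-1 letters in 7.81%, the STAT letters in 8.30%, the E-box in 7.15%, the GC box in 35.7% and TATAAA in 13.6%. A promoter sequence was found for 628 of the 773 noncoding genes that are not miRNAs, and their shares were 36.9% for CCAAT, 7.48% for AP-1, 8.12% for STAT, 11.1% for the E-box, 50.2% for the GC box and 6.37% for TATAAA. For 10056 protein-coding genes with a promoter region the GC box share was 66.8% and TATAAA 7.10%. Median GC content was 58.0% at noncoding genes, 61.7% at protein-coding genes and 52.7% over the table. At noncoding genes with no coding start within 1 kb it was 52%. The ratio of observed to expected CpG was 0.391 there, near the 0.384 over the table, and 0.771 at coding genes.

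RefSeq mature sequences were found for 171 of the 188 miRNA genes among the members. Shown are those of miRNA genes whose hairpin regions differ in the results below, with the seed (bases 2 to 8) in capitals. Both arms are given for miR-802 and miR-101b, the only 2 miRNA genes of the gene panel described below that passed a test. No seed is shared between the sequences printed.
miR-802-5p: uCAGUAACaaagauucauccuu
miR-802-3p: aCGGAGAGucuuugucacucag
miR-101b-3p: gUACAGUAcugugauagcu
miR-101b-5p: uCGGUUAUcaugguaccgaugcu
miR-200a-3p: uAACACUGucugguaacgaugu
miR-291a-3p: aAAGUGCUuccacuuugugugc
miR-293-3p: aGUGCCGCagaguuuguagugu
miR-92b-3p: uAUUGCACucgucccggccucc
miR-3620-3p: cUGCUCAGccccgcccacccca
miR-455-3p: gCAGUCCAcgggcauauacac
miR-203-3p: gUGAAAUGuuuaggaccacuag
miR-3968: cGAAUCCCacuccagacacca

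The members were of several kinds by gene symbol. There were 613 regions of RIKEN clones, 279 of predicted genes and 244 of miRNA genes, called miRNA hairpins below. A further 87 were of antisense transcripts, 22 of snoRNA host genes, 5 of miRNA host genes and 117 of other named genes. A protein-coding start lay within 1 kb of the noncoding start for 545 members. With members annotated by a protein-coding transcript added, 552 (40.4%) are counted throughout as having a coding start within 1 kb. Inside a protein-coding gene lay 559 members (40.9%), among them 163 of the 244 miRNA regions (66.8%). The annotation of 979 members named a transcript of the noncoding gene itself, while 285 were annotated by a protein-coding transcript and 103 by another noncoding one. Regions of neighbouring members overlapped in 293 cases, so members of 1 gene are not independent measurements. A peak was called in all 35 libraries at 416 noncoding promoters (30.4%), against 46.3% of coding promoters, and in 1 library at 231 (16.9%), against 10.5%.

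Library totals were 11.3 to 23.8 M tags, and 3.47 M in NC26 tumor replicate 1. Of 6 hepatocyte markers, 5 had a promoter region: Alb, the albumin gene, averaged 279 tags, the transcription factor gene Hnf4a 142, Apoa1 131, Cps1 108 and Serpina1a 28.3, the last with 0 tags in its lowest library. Of 29 markers of other liver cells, 6 had one: Adgre1 of macrophages averaged 3.56 tags, S100a8 of neutrophils 5.98, Kdr of endothelium 8.62, Lrat and Reln of stellate cells 15.2 and 45, and Sox9 of cholangiocytes 55.8. No lymphocyte marker had a region. In C26 cachexia Sox9 was higher (log2 change 0.75, limma adjusted p = 0.000586), as were the hepatocyte markers Apoa1 (0.50, adjusted p = 0.00745) and Cps1 (0.39, adjusted p = 0.0343). In 8025 cachexia Sox9 (0.52, adjusted p = 0.0374), Lrat (1.02, adjusted p = 0.00812) and S100a8 (1.19, adjusted p = 0.0238) were higher and Reln was lower (-1.24, adjusted p = 0.00629). The part of other cells in the cachexia results below was not tested.

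As a whole set, noncoding promoters were less open than coding ones. Values are tags in 400 bp, for which the authors brought each library to a total of 10 M, and are called tags from here on. The median mean value over 35 libraries was 24.5 tags at noncoding promoters, 47.8 at coding promoters and 10.9 over all regions. The median log2 value differed by -0.92 (noncoding minus coding), with noncoding library medians of 4.5 to 4.77 and coding medians of 5.46 to 5.74, so the ranges of the 35 libraries did not overlap. This is a description of 2 sets of regions and has no test. The median was 38.7 tags with a coding start within 1 kb and 17.8 without, and the members with a coding start had the higher median in all 35 libraries. Position also differed between the sets. The region's centre lay within 200 bp of the start for 55.6% of noncoding and 65.9% of coding promoters. There the medians were 37.0 and 69.4 tags. Noncoding promoters with a coding start had a median of 70.9 tags there, near the coding value, and those without had 22.1.

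Kinds of noncoding genes differed in level. The snoRNA host genes had the highest median with 85.2 tags, followed by miRNA host genes (62.7), antisense transcripts (38.8), other named genes (33.5), RIKEN clones (26.7), predicted genes (21.3) and miRNA hairpins (14.4). The quartiles of these kinds overlap. The most open member was A530072M11Rik with a mean of 592 tags (448 to 776). This gene starts 467 bp from the start of Ripk2, which encodes a kinase of innate immune signalling. C630043F03Rik, which starts 351 bp from the transcriptional corepressor gene Tle1, followed with 546 tags (426 to 707).

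**Figure D1:**
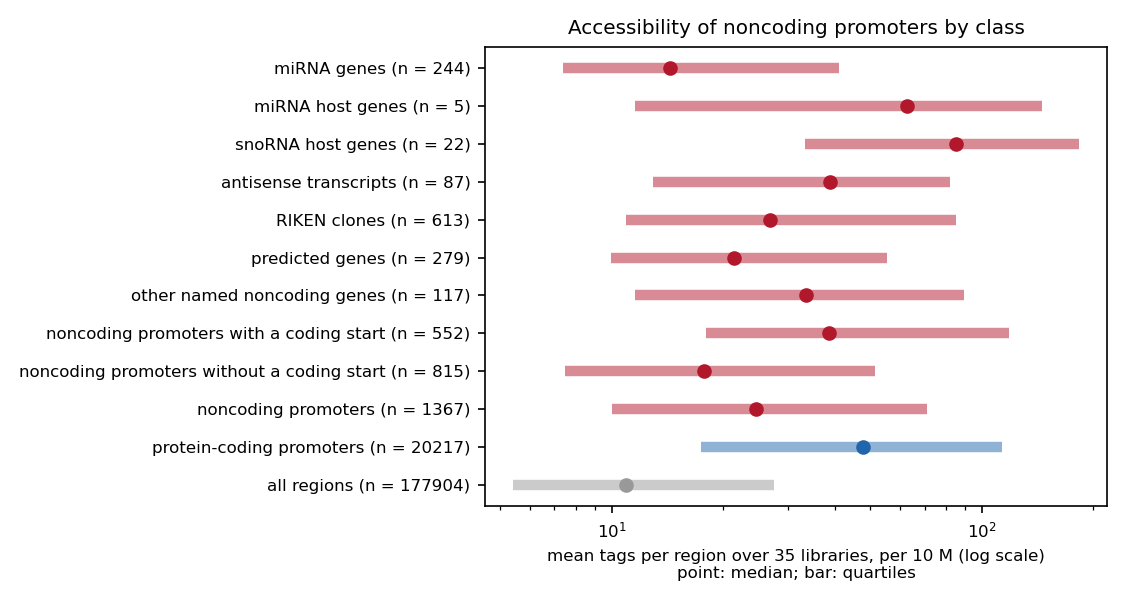
Mean tags per region over 35 libraries (log axis) for each kind of noncoding promoter, for members with and without a coding start within 1 kb, for all noncoding promoters, for protein-coding promoters and for all regions; points are medians and bars span the quartiles. The noncoding median of 24.5 lies below the coding median of 47.8, and miRNA hairpins have the lowest median of the kinds with 14.4.

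In C26 cachexia, 113 noncoding promoters were higher and 55 lower than in C26 PBS, at a limma adjusted p under 0.05 over all regions tested. Thus 12.3% of the 1366 tested members passed, against 11.8% of coding promoters (1952 higher and 440 lower) and a background of 14.2% of all regions, so the total is near the background. By direction, 8.27% of members were higher, against 7.43% of all regions, and 4.03% were lower, against 6.8%. The median log2 change was 0.07 at noncoding promoters, 0.09 at coding promoters and 0.00 over all regions. By kind, 54 higher and 22 lower were RIKEN clones, 22 and 18 predicted genes, 19 and 9 miRNA hairpins and 7 and 2 antisense transcripts. Members with a coding start within 1 kb passed in 10.1% of cases and those without in 13.8%; the difference was not tested. Higher members were 67.3% of those that passed, and 54.5% (78 higher and 65 lower) with loess offsets.

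Ttc39aos1, an antisense transcript whose start lies 843 bp from that of Ttc39a, was among the largest rises. Its region (chr4:109406089-109406489, mm10, centre at -32 bp from the start) had 38, 28.5, 43.4 and 26.7 tags in C26 cachexia, against 9.82, 8.29, 9.91 and 9.42 in C26 PBS. Every cachexia animal was above every PBS animal, and the rise was 3.27-fold (log2 change 1.71 ± 0.31 SE, limma adjusted p = 0.000137). The separate promoter region of Ttc39a itself was also higher (1.63, adjusted p = 7.93e-08). C26 pre-cachexia animals had 31.1, 19, 18.4 and 25.5 tags at Ttc39aos1, all above the PBS animals, in a comparison that did not pass.

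A630001O12Rik, a RIKEN clone with no coding start nearby (chr8:126847925-126848325, centre at -895 bp from the start), had 54.1, 47.4, 89.1 and 58.6 tags in C26 cachexia, against 16.2, 17.2, 16.7 and 18.1 in C26 PBS. The groups did not overlap, and the log2 change was 1.74 ± 0.27 (SE, limma adjusted p = 1.7e-05). BC029722, inside the gene of the ribosome biogenesis factor Eif6 (chr2:155819819-155820219), averaged 114 ± 18.1 tags in C26 cachexia and 40.8 ± 14.6 in C26 PBS (SD, n = 4 each; log2 change 1.47, adjusted p = 1.16e-06). 2010308F09Rik on the X chromosome (chrX:13236152-13236552) averaged 37.6 ± 5.15 and 13.1 ± 2.49 tags in the same groups (1.43, adjusted p = 1.62e-06). The regions are centred -816 and -69 bp from the starts of BC029722 and 2010308F09Rik, which lie 7.722 and 44.739 kb from the nearest coding start. The promoters of Eif6 and Ddx3x did not pass (adjusted p = 0.130 and 0.131).

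5730420D15Rik starts 518 bp from Socs2, a feedback inhibitor of cytokine and growth hormone signalling. Its region (chr10:95417169-95417569) had 46.7, 31.6, 44.1 and 56.6 tags in C26 cachexia, against 14.3, 11.2, 16.1 and 21.7 in C26 PBS, with no overlap (log2 change 1.42 ± 0.32 SE, limma adjusted p = 0.0022). The separate Socs2 promoter rose with it (1.15, adjusted p = 0.000734). In 8025 cachexia the Socs2 promoter did not pass (0.19, adjusted p = 0.715). Gm29684, a predicted gene far from any coding start, averaged 48.9 ± 8.33 tags in C26 cachexia and 15.4 ± 14.3 in C26 PBS (1.91, adjusted p = 0.0341), but this call was lost on leaving out any of 6 of the 8 animals and with edgeR and DESeq2.

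The largest fall was at the predicted gene Gm12718, of which 2 regions passed. Its more distant region (chr4:103381742-103382142, -558 bp from the start) had 5.02, 1.98, 1.62 and 3.43 tags in C26 cachexia, against 13.7, 26.8, 17.6 and 13.0 in C26 PBS. No animal of one group reached the other, and the log2 change was -2.30 ± 0.33 (SE, limma adjusted p = 1.85e-06). Gm7457 (chr6:142813985-142814385, -46 bp) had 31.1, 27.7, 16.2 and 29.8 tags in C26 cachexia, against 67.2, 80.0, 73.7 and 42 in C26 PBS (-1.33 ± 0.19, adjusted p = 1.2e-06), again without overlap. Gm10069 starts 101 bp from Fkbp4, a co-chaperone of steroid receptors, and averaged 15.3 ± 4.5 tags in C26 cachexia and 35.6 ± 7.81 in C26 PBS (-1.21, adjusted p = 0.000167). Its region is centred 299 bp from the start, and a peak was called there in only 1 of the 35 libraries. The Fkbp4 promoter did not pass (-0.19, adjusted p = 0.134). Gm10790 (-1.32, adjusted p = 0.00431) and Mir3620, whose annotated start lies 28 bp from a start of the erythroid heme synthesis gene Alas2 (-1.28, adjusted p = 0.000938), were also lower. Gm10549, at its region centred 554 bp from the start, averaged 6.92 ± 4.04 tags in C26 cachexia and 17.3 ± 9.87 in C26 PBS with overlapping groups (-1.28, adjusted p = 0.0472). This call was lost without any of 5 of the 8 animals. More open regions of Gm10549, with means of 33.5 and 134 tags, passed too, with smaller falls (-0.48 and -0.36).

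**Figure D2:**
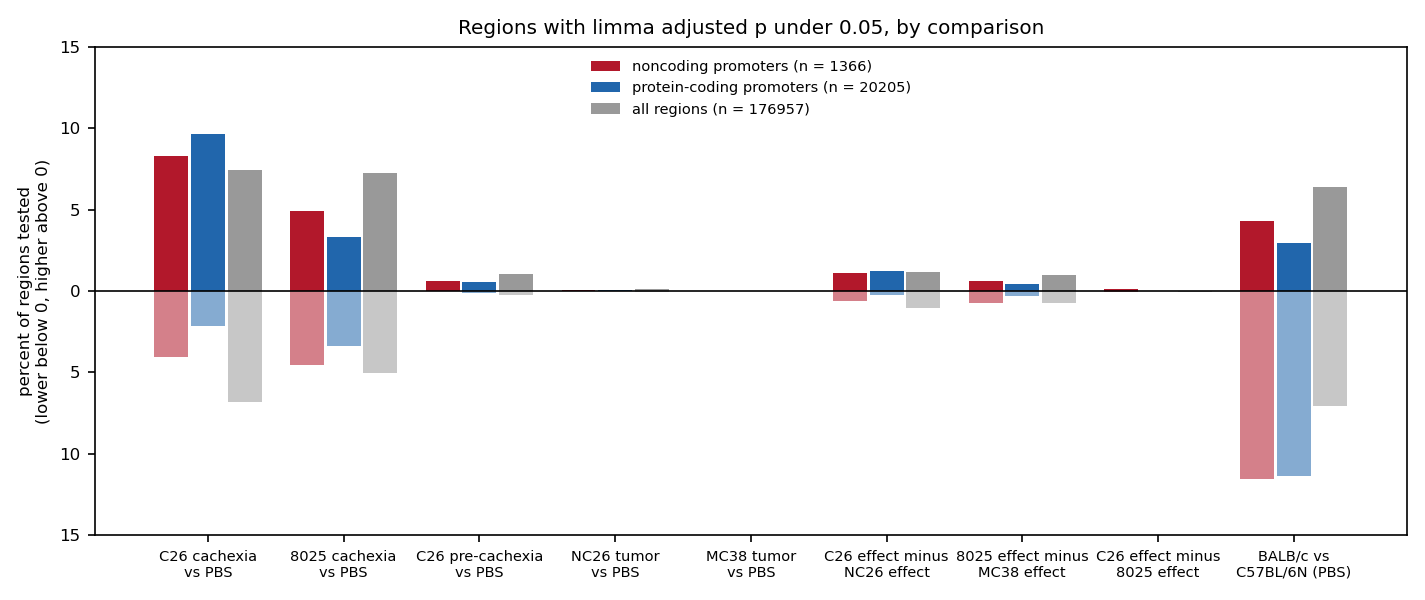
Percent of tested regions higher (above 0) or lower (below 0) at a limma adjusted p under 0.05 in each of 9 comparisons, for 1366 noncoding promoters, 20205 protein-coding promoters and all 176957 regions. Noncoding promoters passed in 12.3% of cases in C26 cachexia, 9.44% in 8025 cachexia and 15.9% between strains, and in under 1% in pre-cachexia and with weight-stable tumors.

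In 8025 cachexia, 67 noncoding promoters were higher and 62 lower than in 8025 PBS. This was 9.44% of members, against 6.70% of coding promoters (675 higher and 678 lower) and a background of 12.3% of all regions. The higher share of members was 4.90%, against 7.26% of all regions, and the lower share 4.54%, against 5.06%. The median log2 change was -0.01 at noncoding and at coding promoters and 0.00 over all regions. Predicted genes made up 13 higher and 27 lower, RIKEN clones 27 and 20, and miRNA hairpins 15 and 13. Members with a coding start within 1 kb passed in 6.34% of cases and those without in 11.5%. The count was 68 without 8025 PBS replicate 2, and higher members were 51.9% of those that passed and 65.2% (60 higher and 32 lower) with scaling to library totals.

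Ttc39aos1 had 64.8, 66.6, 85.2 and 57.6 tags in 8025 cachexia, against 10.6, 2.82 and 21.6 in 8025 PBS. All cachexia animals were above all PBS animals, the rise was 6.71-fold (log2 change 2.75 ± 0.34 SE, limma adjusted p = 3.47e-07), and the Ttc39a promoter was higher too (1.47, adjusted p = 4.15e-06). Airn, the imprinted antisense RNA within Igf2r, had 47.3, 66.4, 97.2 and 59.1 tags at its region -827 bp from the start (chr17:12740284-12740684) in 8025 cachexia, against 16.2, 15.2 and 12.1 in 8025 PBS (2.07 ± 0.30, adjusted p = 3.82e-06). All other groups stayed between 3.53 and 29.6 tags there. The Igf2r promoter did not pass in this comparison (-0.02, adjusted p = 0.969), and a further Airn region at chr17:12741100-12741500 did not either (0.81, adjusted p = 0.146).

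A630001O12Rik had 101, 112, 196 and 94.8 tags in 8025 cachexia, against 36.8, 29.6 and 36.3 in 8025 PBS, with no overlap (log2 change 1.76 ± 0.29 SE, limma adjusted p = 5.91e-05). BC029722 averaged 168 ± 23.3 tags in 8025 cachexia (n = 4) and 64.6 ± 7.64 in 8025 PBS (n = 3; 1.33, adjusted p = 2.9e-05). Gm5627 averaged 34.6 ± 5.18 and 11.4 ± 4.76 tags in these groups (1.56, adjusted p = 0.000469). Gm13293 averaged 20.5 ± 4.24 and 7.66 ± 3.86 (1.36, adjusted p = 0.00272), a call that was lost without 8025 PBS replicate 4 (adjusted p = 0.0756).

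Among the falls, the hairpin region of Mir1948, inside Ttc39c, averaged 12.3 ± 3.26 tags in 8025 cachexia (n = 4) and 40.6 ± 6.45 in 8025 PBS (SD, n = 3; log2 change -1.70, limma adjusted p = 3.49e-05). Gm12718 had 5.32, 5.57, 3.16 and 10.2 tags in 8025 cachexia, against 23.7, 17.6 and 17.8 in 8025 PBS, without overlap (-1.66, adjusted p = 0.00104). Mir3620 had 5.91, 5.82, 5.05 and 5.24 tags in 8025 cachexia, against 14.3, 9.87 and 24.2 in 8025 PBS (-1.34, adjusted p = 0.00164). Gm17753 (-1.23, adjusted p = 0.000842) and Gm16897 (-1.22, adjusted p = 0.00236) were lower without overlap. Gm10549, which starts 134 bp from Nrep, was lower as well at the same region as in C26 cachexia (-1.55, adjusted p = 0.0281). There it lost its call without any of 4 of the 7 animals. The more open Gm10549 regions also passed in 8025 cachexia (-1.04 and -0.71). The Nrep promoter was lower in 8025 cachexia (-0.70, adjusted p = 1.93e-05) and in C26 cachexia (-0.32, adjusted p = 0.0311).

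**Figure D3:**
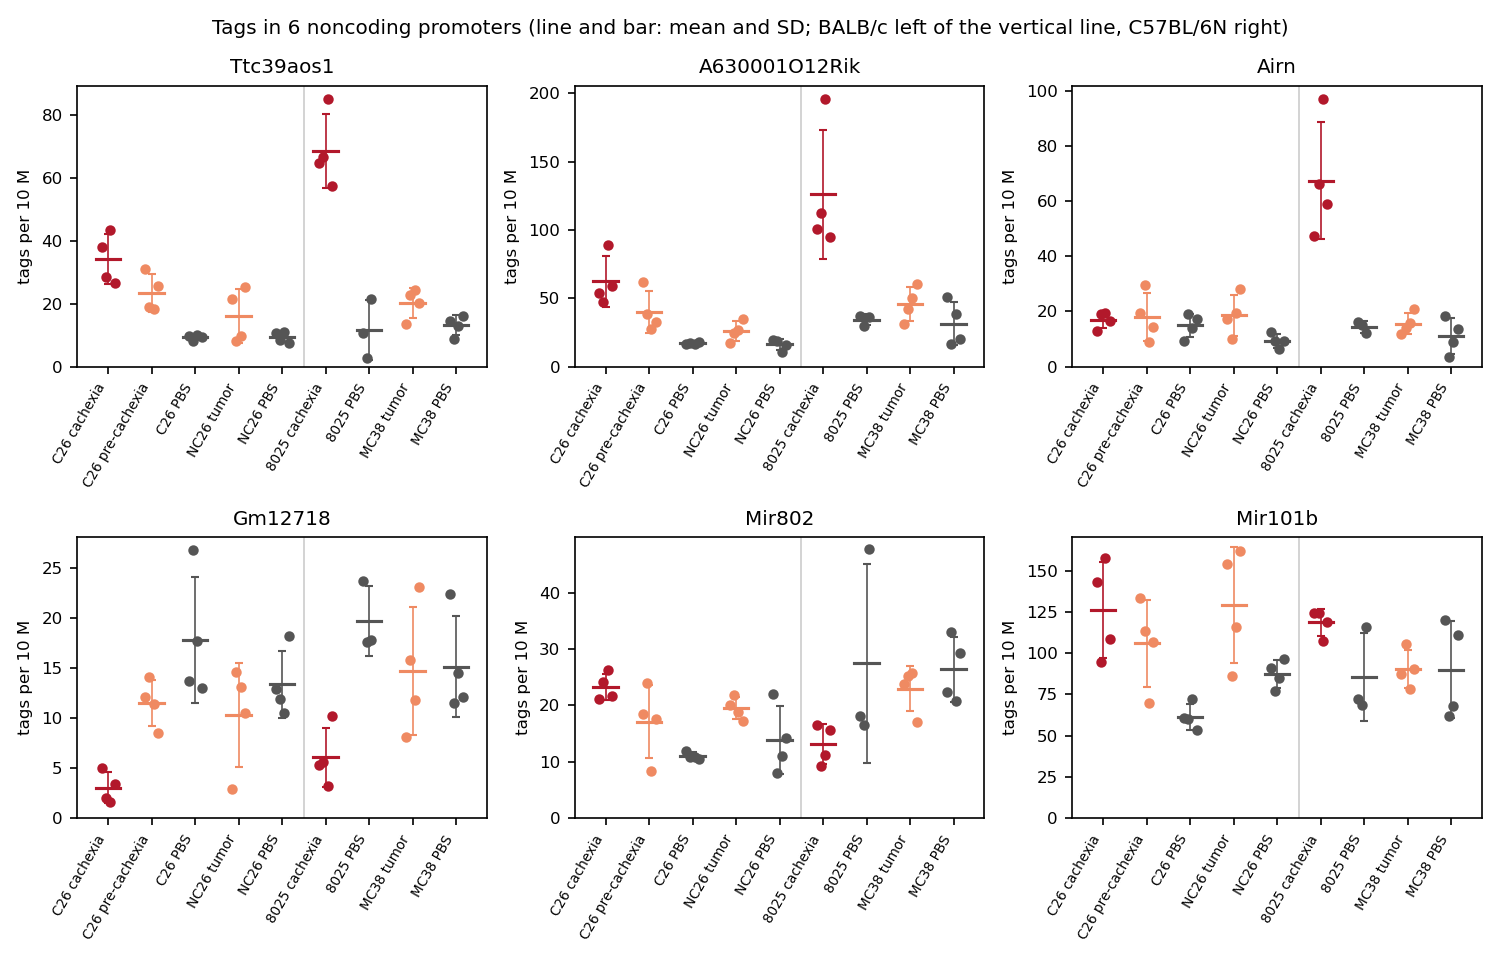
Tags per 10 M at 6 noncoding promoters in each animal of the 9 groups (points), with mean and SD (line and bar); BALB/c groups are left of the vertical line and C57BL/6N groups right. Ttc39aos1 and A630001O12Rik are high in both cachexia groups, Airn in 8025 cachexia with 47.3 to 97.2 tags, Gm12718 is low in both, and Mir802 is above its PBS group in C26 cachexia and below it in 8025 cachexia.

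Both models shared part of their changes. Of the members, 30 were higher in both, which is 26.5% of the 113 higher in C26 cachexia and 44.8% of the 67 higher in 8025 cachexia. Another 24 were lower in both, or 43.6% of the C26 list and 38.7% of the 8025 list. Over all regions the shares were 45.1% and 46.2% for higher, and 36.6% and 49.2% for lower. The 2 models have separate PBS animals.

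The members higher in both included miRNA hairpin regions. Of all miRNA hairpins, 7.79% were higher in C26 and 6.15% in 8025 cachexia, against 7.43% and 7.26% of all regions, so these shares are near the background. Mir291a, of an embryonic stem cell miRNA cluster, had log2 changes of 1.64 in C26 and 1.38 in 8025 cachexia, and Mir293 of the same cluster 1.11 and 0.92. Mir200a, of an epithelial miRNA family, had 0.79 and 1.18, and Mir92b 0.81 and 1.07. Most of these named hairpin regions had few tags. Means over 35 libraries were 8.56 at Mir291a, 8.75 at Mir92b, 11.3 at Mir200a and 50.2 at Mir293, and the median over all regions was 10.9. Gm33174, a predicted gene, had 1.94 and 2.33, and 1700051A21Rik, which starts 240 bp from the citrate transporter gene Slc13a5, 0.98 and 1.17. Hairpin regions lower in both included Mir3620, Mir1948, Mir455 (-0.51 and -0.50) and Mir203 (-0.39 and -0.63). Also lower in both were 2 regions of Gm35986, near the fatty acid elongase gene Elovl6, which had -0.62 and -0.58 in C26 and -1.17 and -1.01 in 8025 cachexia, and A330041J22Rik, near the malic enzyme gene Me1, with -0.78 and -1.15. The members named here were picked after their values were seen.

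**Figure D4:**
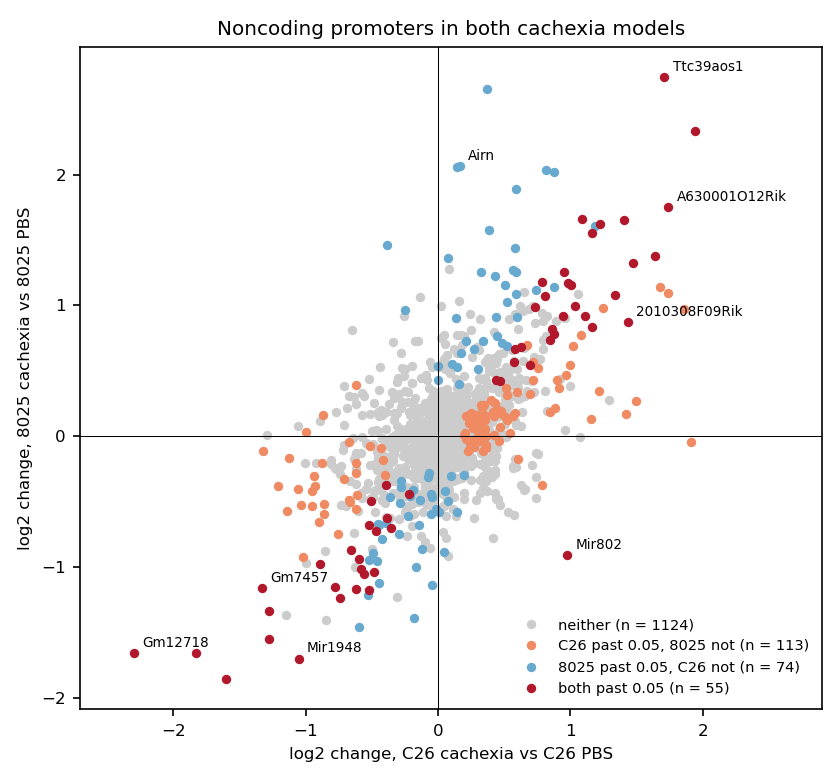
Log2 change of 1366 noncoding promoters in C26 cachexia against C26 PBS (horizontal) and in 8025 cachexia against 8025 PBS (vertical), coloured by which comparison had an adjusted p under 0.05. The 55 members past the threshold in both lie in the same direction except Mir802.

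A single member, Mir802, passed in opposite directions. Its hairpin region (chr16:93369450-93369850), at a gene whose miRNA is linked to glucose metabolism in mouse liver, had 21.1, 24.1, 26.2 and 21.6 tags in C26 cachexia, against 11.9, 10.8, 10.8 and 10.5 in C26 PBS. These groups did not overlap (log2 change 0.98 ± 0.27 SE, limma adjusted p = 0.0101). In 8025 cachexia it had 16.56, 9.21, 11.2 and 15.7 tags, against 18.1, 16.57 and 47.8 in 8025 PBS, so that the groups touch and 1 PBS animal stands far above the others (-0.91 ± 0.29, adjusted p = 0.0325). The 8025 call was lost without 8025 PBS replicate 4, 8025 cachexia replicate 2 or 8025 cachexia replicate 3, and over all alternatives its adjusted p was 0.00605 to 0.368. The C26 call was lost with promoter share as a covariate (adjusted p = 0.0744). The effects of the 2 models differed by 1.89 (adjusted p = 0.0368), a call lost without any of 10 of the 15 animals.

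Direct tests of the C26 effect minus the 8025 effect passed at 2 members in the positive and 1 in the negative direction, against a background of 0.1% of all regions (0.0266% positive and 0.0735% negative). Besides Mir802 these were Gm29669 (0.78, limma adjusted p = 0.0407) and Airn (-1.90, adjusted p = 0.0407), and each was lost in most leave-outs (12 and 13 of 15). Strain and library series differ between the models in the same way as the tumor line.

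In C26 pre-cachexia, 8 members were higher than in C26 PBS, or 0.586%, against 0.678% of coding promoters and a background of 1.31% of all regions (1.05% higher and 0.265% lower). None was lower by limma, where 45 were lower at an unadjusted p under 0.05; edgeR and DESeq2 called 13 and 25 members in total, and with loess offsets 7 were higher and 1 lower. 1700051A21Rik (chr11:72266597-72266997) had 108, 88.2, 77.8 and 62.4 tags in pre-cachexia, against 32.7, 52.3, 42.4 and 39.8 in C26 PBS. The groups did not overlap (log2 change 0.90 ± 0.16 SE, adjusted p = 0.00114), and this call held in every alternative tried. A930005H10Rik near Dph5, a gene of diphthamide synthesis (0.52, adjusted p = 0.0166), Gm8883 (0.50, adjusted p = 0.0254), Mir101b (0.66, adjusted p = 0.0257), 4632404H12Rik (0.38, adjusted p = 0.0365), BC029722 (0.76, adjusted p = 0.0387), 4930474M22Rik (1.26, adjusted p = 0.0401) and A630001O12Rik (1.03, adjusted p = 0.0432) each lost the call without at least 2 animals. The count of 8 was 1 without C26 pre-cachexia replicate 1, and 3 without C26 PBS replicate 1 or replicate 3.

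With weight-stable tumors, few members differed. Gm33174 was the only member higher in NC26 tumor than in NC26 PBS (0.0732% of members, background 0.179% in all, 0.138% higher and 0.0407% lower), with 14.4, 8.56, 15.1 and 14.0 tags in NC26 tumor animals, against 1.66, 4.90, 2.43 and 4.25 in NC26 PBS. The groups did not overlap (log2 change 1.65 ± 0.32 SE, limma adjusted p = 0.0126), and the difference was 1.63 within series A and 1.66 within series B. The call was lost without NC26 tumor replicate 1, the shallow library, or NC26 PBS replicate 1; the count of members was 10 without NC26 tumor replicate 2 and 0 at the lowest. No member was lower by limma, 80 were at an unadjusted p under 0.05. In MC38 tumor animals no member passed against MC38 PBS (background 0.0186% in all, 0.0181% higher and 0.000565% lower) by limma, edgeR or DESeq2, and 60 had an unadjusted limma p under 0.05.

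The cachexia effect minus the weight-stable tumor effect was tested within each strain. C26 minus NC26 passed at 15 members in the positive and 8 in the negative direction, 23 in all (1.68%), against a background of 2.22% of all regions (1.2% positive and 1.02% negative). 2010308F09Rik differed by 1.25 (limma adjusted p = 0.0121), A930005H10Rik by 0.79 (adjusted p = 0.00828) and AI463170, which lies in Plekhg3, by 0.92 (adjusted p = 0.0164). Gm12718 at its nearer region (chr4:103382145-103382545) differed by -1.91 (adjusted p = 0.00444), Gm7457 by -1.26 (adjusted p = 0.00552) and 2010310C07Rik, which lies in Epha1, by -1.02 (adjusted p = 0.0165). With library totals the count was 5 (2 positive and 3 negative), and the calls of 2010308F09Rik, A930005H10Rik, AI463170 and 2010310C07Rik were lost. With loess offsets 8 members were positive and 9 negative. AI463170 was also lost without NC26 PBS replicate 1, and 2010310C07Rik without NC26 tumor replicate 1. The count of members fell to 10 without C26 cachexia replicate 4 and was 11 without NC26 PBS replicate 1. It was 13 without C26 cachexia replicate 3 or C26 PBS replicate 4. It was 15 without C26 PBS replicate 1, C26 PBS replicate 3 or NC26 tumor replicate 1.

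8025 minus MC38 passed at 8 members in the positive and 10 in the negative direction, 18 in all (1.32%), against a background of 1.71% of all regions (0.962% positive and 0.747% negative). Ttc39aos1 differed by 2.21 (limma adjusted p = 0.00693), with 13.7, 22.7, 24.4 and 20.1 tags in MC38 tumor animals and 14.6, 8.81, 13.0 and 16.2 in MC38 PBS. Gm12718 at its nearer region differed by -1.72 (adjusted p = 0.0163), Mir1948 by -1.65 (adjusted p = 0.0152) and 1700074H08Rik by -1.50 (adjusted p = 0.0227). Airn (1.49, adjusted p = 0.0467) and Mir6926 (1.38, adjusted p = 0.0316) passed too. Leaving out 1 animal ended the call of Airn in 12, of Mir6926 in 8 and of 1700074H08Rik in 4 of 15 cases. The Gm12718 call was lost with library totals, with only the groups compared and with a replicate block (adjusted p up to 0.0737). The count was 4 without 8025 PBS replicate 2 and 8 without 8025 PBS replicate 1, and without 8025 PBS replicate 2 the calls of Ttc39aos1 (adjusted p = 0.0538) and Mir1948 were lost.

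Most of the well-known noncoding genes did not pass, as was so for regions in general. Of a panel of 24 such genes, 13 had a member promoter, with 27 regions in all. Of these 27 regions, 4 passed in C26 cachexia and 2 in 8025 cachexia, where 14.2% and 12.3% of all regions passed. Each gene is described by its most open region unless stated, and 4 genes passed at that region in a cachexia comparison. Malat1 averaged 156 ± 15 tags in 8025 cachexia (n = 4) and 106 ± 10.9 in 8025 PBS (SD, n = 3; log2 change 0.52, limma adjusted p = 0.00325), and its change of 0.30 in C26 cachexia did not pass (adjusted p = 0.0677). Mir101b, inside Rcl1 and of a miRNA family known to target the histone methyltransferase Ezh2, had 143, 94.9, 158 and 109 tags in C26 cachexia, against 60.4, 60.2, 72.1 and 53.2 in C26 PBS, without overlap (0.97 ± 0.16, adjusted p = 3.41e-05). In 8025 cachexia it had 124, 124, 107 and 119 tags, against 72.3, 68.4 and 116 in 8025 PBS, with overlap (0.47, adjusted p = 0.0705). Mir22hg, the host gene of miR-22, averaged 320 ± 10.3 tags in C26 cachexia and 271 ± 36.6 in C26 PBS with overlapping groups (0.21, adjusted p = 0.0352), a call lost without any of 7 of the 8 animals. The Malat1 region described is centred -918 bp from the start. Less open regions of Malat1, Mir22hg and Mir802 did not pass in either cachexia comparison.

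The other 9 panel genes were Neat1 of nuclear paraspeckles, Mir21a, Gas5, Snhg12, Dancr, Tug1, Pvt1, Kcnq1ot1 and Gm15441. Of their 18 regions, a less open one of Neat1 (chr19:5845226-5845626) was the one past the threshold in a comparison against PBS. It had 114, 113.5, 97.5 and 115.5 tags in C26 cachexia, against 87.7, 87.0, 83.0 and 79.3 in C26 PBS, with no overlap (log2 change 0.35 ± 0.12 SE, limma adjusted p = 0.0378), a call lost without any of 5 of the 8 animals. At the most open region of each of the 9 genes, the log2 changes were -0.996 (Mir21a) to 0.21 (Tug1) in C26 cachexia, with a lowest adjusted p of 0.0725, and -0.97 (Mir21a) to 0.21 (Neat1) in 8025 cachexia, with a lowest adjusted p of 0.120. Mir21a, a miRNA that rises in many growing or injured tissues, had 13.7, 11.9, 6.48 and 14.7 tags in C26 cachexia, against 21.1, 18.5, 26.9 and 25.4 in C26 PBS; the groups did not overlap, but the fit did not pass. Of 9 imprinted noncoding genes 3 had member promoters with 5 regions, of which the Airn region above was the one that passed, in 8025 cachexia. Of 4 noncoding genes of X inactivation, Jpx, an activator of Xist, had 1 region, which was higher in C26 cachexia (0.47, adjusted p = 0.0176) and did not pass in 8025 cachexia (0.07).

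Coding promoters near the members that passed were compared with them as a description, with no test. Over all coding promoters, 9.66% were higher and 2.18% lower in C26 cachexia, and 3.34% were higher and 3.36% lower in 8025 cachexia. Regions at starts within 1 kb can overlap and share tags, and such pairs were not left out. Agreement there may thus be partly built in. Of the 42 higher members with a coding start within 1 kb in C26 cachexia, 28 had another region at that coding promoter. It was higher in 16, lower in 0 and not past the threshold in 12. Of the 71 higher members without one, 57 had a region at the nearest coding promoter, which was higher in 14, lower in 2 and not past the threshold in 41. In 8025 cachexia the coding promoter was higher in 5 of 8 and in 5 of 42 such cases. For lower members it was lower in 4 of 10 with and 3 of 30 without a coding start within 1 kb in C26 cachexia, and in 5 of 13 and 3 of 32 in 8025 cachexia. AI463170 moved against its neighbour in 8025 cachexia (0.54), where the Plekhg3 promoter was lower (-0.48, limma adjusted p = 0.000507).

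Strains differed at many members, in a test with more animals per side than the cachexia tests. Between PBS animals of BALB/c (n = 8) and of C57BL/6N (n = 7), 59 noncoding promoters were higher in BALB/c and 158 lower, or 15.9%, against 14.3% of coding promoters (601 higher and 2293 lower) and a background of 13.5% of all regions (6.41% higher and 7.06% lower). Median log2 differences were -0.06 at noncoding and coding promoters and 0.02 over all regions. Higher members were 27.2% of those that passed, and 39.8% (72 higher and 109 lower) with loess offsets. With only the groups compared in the fit, 172 members passed between strains and 190 in C26 cachexia. Alleles that differ from the reference genome can change how many reads align, and their part was not tested.

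The hairpin region of Mir3968 (chr11:115448069-115448469) averaged 7.28 ± 2.33 tags in BALB/c PBS animals (n = 8) and 103 ± 21.5 in C57BL/6N PBS animals (SD, n = 7; log2 difference -3.68, limma adjusted p = 3.12e-20). Tumor-bearing animals were not in this contrast, although the fit used them for the shared spread and the library series. Among them the Mir3968 region ranged from 3.95 to 12.4 tags in 12 BALB/c animals (median 9.46). In 8 C57BL/6N animals it ranged from 89.6 to 130 (median 102). 4930412C18Rik averaged 7.46 ± 2.25 and 45.4 ± 9.56 tags in PBS animals of these strains (-2.35, adjusted p = 3.29e-13), and Mir7668 7.58 ± 2.56 and 29.7 ± 5.61 (-1.74, adjusted p = 2.39e-08). Higher in BALB/c were Scpep1os with 15.4 ± 3.70 against 5.99 ± 1.93 tags (1.32, adjusted p = 1.1e-05), Mir6546 (1.23, adjusted p = 0.000209) and Gm30726 (1.22, adjusted p = 0.000142). The tumor-bearing animals of both strains did not overlap at Mir3968, 4930412C18Rik, Mir7668 and Scpep1os, and did overlap at Mir6546 and Gm30726. Within library series A and B the NC26 PBS minus MC38 PBS difference had the same sign for all 6, at -3.44 and -3.99 for Mir3968 and 0.60 and 1.85 for Gm30726.

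**Figure D5:**
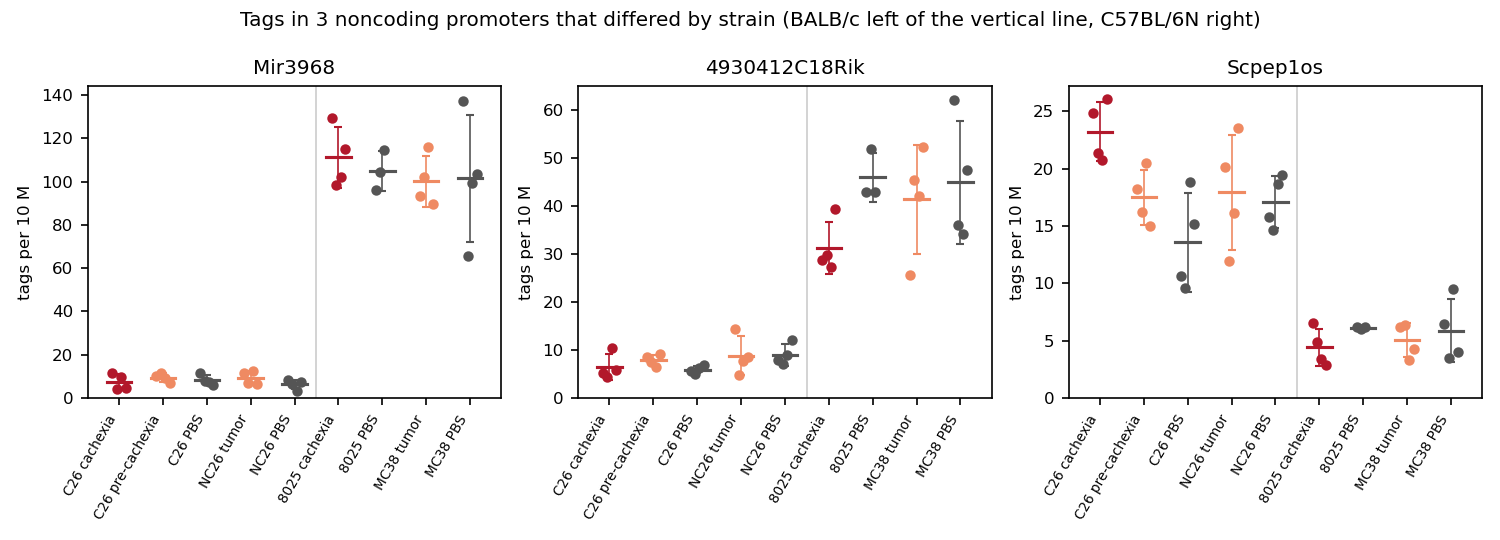
Tags per 10 M at the promoters of Mir3968, 4930412C18Rik and Scpep1os in each animal of the 9 groups (points), with mean and SD (line and bar); BALB/c groups are left of the vertical line and C57BL/6N groups right. In every group Mir3968 separates the strains, with at most 12.4 tags in BALB/c tumor-bearing animals and at least 89.6 in C57BL/6N ones.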

How the data were processed

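ATAC-seq of hepatocyte nuclei was analysed in 35 libraries of 9 groups, 1 per animal per the labels, and p-values rest on the variation among animals. Reads were aligned to mm10 with BWA 0.7.5a-r405 and processed with SAMtools and HOMER (submitters' processing notes). How duplicates were handled is not given in the sources used here. Per the file headers, the deposited values are a signal: tags in 400 bp around each merged peak, which the authors brought to a total of 10 M in each library. Whole read ends were recovered for 100% of values (tolerance 0.1 read end), and edgeR on them called 160 members in C26 cachexia and 150 in 8025 cachexia. The precision of a value is limited by library totals of 3.47 to 23.8 M tags.

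Values were scaled by TMM (factors 0.803 to 1.25) and, not being raw counts, were tested as log2(value + 1) with limma-trend, its empirical Bayes step robust. A filter (minimum count 10, minimum total 15) kept 176957 regions, of which 1366 were members (a region of Urml was removed) and 20205 coding promoters. The fit held all 9 groups and the library series, with Benjamini-Hochberg adjustment over all regions tested and a threshold of 0.05. Fold changes on this scale understate changes at low values. On data simulated for C26 cachexia against PBS with 176957 regions, 45% of 100 regions changed 2-fold and 95% of 100 changed 3-fold were recovered, with 4 false calls. The changed regions were drawn from those at or above the median count, all other regions were unchanged, and every region had the same spread. Recovery at weaker regions, or with as many changes as in the real comparison, was not simulated.

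Members counted as having a coding start had one within 1 kb by the RefSeq table or the deposited distances, or were annotated by a protein-coding transcript. Named promoters were the 6 largest rises and 6 largest falls in each cachexia comparison and 3 and 3 in the others, among members past the threshold with average signal at or above the median of all regions, 1 region per gene, plus the panel genes and comparisons with few calls. A less open Neat1 region and members named for moving in both models, as neighbours or as most open were chosen after their values were seen. Members, lists and tests were chosen with earlier results of these data known. Alternatives were other scalings (RLE factors, library totals, loess offsets), a pseudocount of 5, no filter, edgeR and DESeq2, only the groups compared, no library series, a replicate block, promoter share as covariate, subsets of members and leaving out each animal. The tools were limma 3.58.1, DESeq2 1.42.0 and edgeR 4.0.16 under R 4.3.3.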

Additional observations from a re-analysis of the deposited data

Results flagged for a closer look

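In 54 checks of groups of 4 animals, at the named promoters and of library totals, 4 held an animal far from the others, where chance gives about 1 in 20. All 4 were at named promoters. 2010308F09Rik had 45.2 tags in its highest C26 cachexia animal, and the next had 35.9. A630001O12Rik had 196 tags in its highest 8025 cachexia animal, and the next had 112. Gm16897 had 29 tags in its highest 8025 cachexia animal, and the next had 16.5. The less open Neat1 region had 97.5 tags in its lowest C26 cachexia animal, and the next had 113.

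Effects that differed between groups by a direct limma test are listed with the log2 difference. The C26 cachexia effect exceeded the NC26 tumor effect at 2010308F09Rik by 1.25 (adjusted p = 0.0121), at AI463170 by 0.92 (adjusted p = 0.0164) and at A930005H10Rik by 0.79 (adjusted p = 0.00828). It was lower at Gm12718 (-1.91, adjusted p = 0.00444), Gm7457 (-1.26, adjusted p = 0.00552) and 2010310C07Rik (-1.02, adjusted p = 0.0165). The 8025 cachexia effect exceeded the MC38 tumor effect at Ttc39aos1 by 2.21 (adjusted p = 0.00693), at Airn by 1.49 (adjusted p = 0.0467) and at Mir6926 by 1.38 (adjusted p = 0.0316). It was lower at Gm12718 (-1.72, adjusted p = 0.0163), Mir1948 (-1.65, adjusted p = 0.0152) and 1700074H08Rik (-1.50, adjusted p = 0.0227). The C26 cachexia effect exceeded the 8025 cachexia effect at Mir802 by 1.89 (adjusted p = 0.0368) and at Gm29669 by 0.78 (adjusted p = 0.0407), and was lower at Airn (-1.90, adjusted p = 0.0407). The cause of these differences was not tested.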

How the results depend on the processing

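No value past its threshold changed sign in an alternative. The changes of Malat1, Mir22hg and Mir101b in MC38 tumor and of Malat1 in NC26 tumor, all near 0 and not past it, did. Counts of members past the threshold that moved by more than 1.5 times are given here, and the cause was not tested except where fewer regions were counted. With library totals, counts were 78 in C26 cachexia (main 168), 2 in NC26 tumor (main 1), 5 for C26 minus NC26 (main 23, with 15 positive and 8 negative against 2 and 3), 8 for 8025 minus MC38 (main 18), 0 for C26 minus 8025 (main 3) and 142 for strain (main 217). With promoter share as covariate they were 103 in C26 cachexia, 12 for C26 minus NC26 and 0 for C26 minus 8025. Pseudocount 5 gave 29 for 8025 minus MC38 and 5 for C26 minus 8025. Pre-cachexia (main 8) had 13 with edgeR, 25 with DESeq2 and 14 with only the groups compared. DESeq2 gave 3 in NC26 tumor, 39 for 8025 minus MC38 and 6 for C26 minus 8025, and edgeR gave 15 for C26 minus NC26. Only the groups compared gave 0 in NC26 tumor and 14 for C26 minus NC26. Counting only members without a coding start within 1 kb gave 5 in pre-cachexia, 11 for 8025 minus MC38, 136 for strain and 112 in C26 cachexia. Counting only members with the centre within 200 bp of the start gave 100 in C26 cachexia, 71 in 8025 cachexia (main 129), 4 in pre-cachexia, 12 for 8025 minus MC38, 2 for C26 minus 8025 and 137 for strain. The median level difference of -0.92 was -1.40 without a coding start, -0.36 with noncoding promoters alone limited to 200 bp, and -0.89 with both sets limited, an alternative chosen after seeing the data.

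Leaving out 1 animal at a time gave 114 to 142 in C26 cachexia, 68 to 117 in 8025 cachexia, 1 to 12 in pre-cachexia, 0 to 10 in NC26 tumor, 0 in MC38 tumor, 10 to 28 for C26 minus NC26, 4 to 22 for 8025 minus MC38, 0 to 5 for C26 minus 8025 and 167 to 219 for strain. With a replicate block, counts were 162 in C26 cachexia, 97 in 8025 cachexia, 9 in pre-cachexia, 1 in NC26 tumor, 0 in MC38 tumor, 19 for C26 minus NC26, 10 for 8025 minus MC38 and 0 for C26 minus 8025. The labels state no pairing of same-numbered animals. The number does go with the library series in NC26 and MC38, and same-numbered C26 libraries have consecutive names. Deviations of same-numbered animals correlated at -0.156 to 0.077 over 19 pairs, and 5 of 19 correlated best with their own number. These values cannot show whether the animals were paired. Regions with few tags, such as Gm33174 and Mir802, and the 3 animals of 8025 PBS limit what depth and group size can show.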
